A study of Mus musculus with 16 samples.

Results

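RNA of the somatodendritic compartment was compared between Hnrnpr-/- and +/+ motoneurons. The comparison used the 4 Hnrnpr-/- and 4 +/+ libraries whose sample titles give this compartment, which are 8 of the 16 libraries of the study, and it was fitted without the 8 axonal libraries. Of 46320 annotated genes, 31730 had a count in at least 1 of the 8 libraries, and 17961 passed the filter on low counts and were tested, among them 14436 protein-coding genes and 2173 long noncoding RNA genes. The question was which transcripts differ in the cell bodies and dendrites of motoneurons that lack hnRNP R.

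hnRNP R belongs to the heterogeneous nuclear ribonucleoproteins (hnRNPs), RNA-binding proteins that package newly made transcripts and take part in splicing, export, transport, stability and translation of mRNA. In motoneurons it is found in the nucleus and also in axons, and it is known as a binding partner of Smn, the protein that is reduced in spinal muscular atrophy. Its closest relative is Syncrip, also called hnRNP Q, with the same set of RNA-binding domains.

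The motoneurons came from the lumbar spinal cord of E13 mouse embryos, that is, embryonic day 13, and were enriched by panning on an antibody against p75NTR, a neurotrophin receptor on the surface of motoneurons at this age. Both genotypes were grown in microfluidic chambers with CNTF, a survival factor for motoneurons, at 5 ng/ml on both sides and BDNF, which draws axons through the channels, at 20 ng/ml on the axonal side only. Hnrnpr-/- mice carry a CRISPR/Cas9 deletion of exons 1 to 5 of Hnrnpr in all cells and were backcrossed onto C57Bl/6. The labels give no sex, litter, culture or batch for any library, so that p values measure the spread between these libraries.

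Total counts per library were 22024923 to 34593927, and 24677 to 26072 genes had a count. Spearman correlations between libraries across genes were 0.970 to 0.990 within a genotype and 0.974 to 0.992 between the genotypes, so that the genotypes did not separate on this measure. The first principal component held 35.7% of the variance and placed Hnrnpr-/- library 1 at one end, at -43.5, and Hnrnpr-/- libraries 2, 3 and 4 toward the other, at 11.0, 31.6 and 50.0. The 4 +/+ libraries lay at -1.67, -31.6, 10.2 and -26.0, between the ends of the Hnrnpr-/- group.

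Hnrnpr-/- library 1 also stood apart from the other Hnrnpr-/- libraries in transcripts of the Y chromosome. Ddx3y, a Y-linked RNA helicase, had 749 counts in Hnrnpr-/- library 1 and 5, 1 and 1 counts in libraries 2, 3 and 4. In the +/+ libraries it had 804, 4, 23 and 1126 counts in the order 1 to 4, so that Y-linked RNA was abundant in 2 of 4 +/+ and 1 of 4 Hnrnpr-/- libraries. Xist, the noncoding RNA of the inactive X chromosome, had 870, 1308, 1590 and 65 counts in the +/+ and 694, 2187, 1622 and 2038 counts in the Hnrnpr-/- libraries. Sex-linked RNA thus differed between libraries of the same genotype, and counts of genes per group are given below also without Hnrnpr-/- library 1 where it moved them most.

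The label of these cells was checked against marker genes. Of 7 motoneuron markers 5 were tested, and none passed the unadjusted threshold. The cholinergic genes Slc18a3, the vesicular acetylcholine transporter, and Slc5a7, the choline transporter, had 83 to 303 and 65 to 224 counts per +/+ library. Chat, the enzyme that makes acetylcholine, had 14 to 29 counts per +/+ library and Isl1, a transcription factor of motoneurons and sensory neurons, 83 to 194. Mnx1, the transcription factor that defines postmitotic motoneurons, had 0 counts in all 8 libraries, where a count of 0 allows up to 3 counts, and Isl2 had at most 5. In contrast, the glial genes Sparcl1, Aldoc and Fabp7 had means of 791, 599 and 404 CPM in +/+, where CPM are counts relative to the library total, scaled by TMM factors. RNA of glial marker genes was thus abundant in both genotypes, whereas the motoneuron markers Mnx1 and Isl2 were at or near 0. The 5 tested motoneuron markers were detected at lower levels than these glial genes, with means of up to 7.66 CPM in +/+ (Slc18a3). In these bulk libraries fewer cells of a type and less RNA per cell cannot be told apart.

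Hnrnpr was the only gene that passed the adjusted threshold. Its level was 169, 200, 180 and 227 CPM in the +/+ libraries and 0.642, 1.03, 0.517 and 1.11 CPM in the Hnrnpr-/- libraries, which hold 16, 25, 13 and 27 counts. Hence every Hnrnpr-/- library lay far below every +/+ library, and the Hnrnpr-/- mean was 0.426% of the +/+ mean. The fold change was -7.87 on the log2 scale, with a standard error (SE) of 0.23 and a 95% interval from -8.39 to -7.35 (edgeR quasi-likelihood test, Benjamini-Hochberg adjusted p = 6.63e-08). Called genes made up 0.00557% of the genes tested, and the gene with the second smallest p value had an adjusted p of 0.999. By the unadjusted p, 471 genes lay under 0.05 with edgeR, and DESeq2 with its default settings called 2 genes after adjustment, Hnrnpr and the endothelial cadherin Cdh5. Cdh5 did not pass the filter on low counts and was not tested in the main edgeR fit. It had 0 to 7 counts per +/+ library and 7 to 88 per Hnrnpr-/- library.

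The deletion removes a small part of the annotated exon sequence of Hnrnpr. In the annotation of GRCm39, the canonical transcript Hnrnpr-202 has 11 exons and 21475 bases, of which exons 1 to 5 make up 655 bases or 3.05%. Exons 1 to 5 span chr4:136038253-136046818 on the plus strand, and 20820 bases of exons 6 to 11 lie downstream. The counts are sums over all exons of a gene, so that reads from the deleted and the remaining exons cannot be told apart here. The loss was larger than the deleted share of the sequence, with 0.426% of the +/+ level left against 3.05% of the bases deleted. The study's qPCR primers for Hnrnpr also lie downstream of the deletion, and they are shown because they mark which part of the transcript such an assay reads. Both match exon 11 in the 3′ UTR of Hnrnpr-202, at chr4:136067436-136067455 on the plus strand and chr4:136067545-136067564 on the minus strand, give an amplicon of 129 bases, and match 16 of 22 coding transcripts of Hnrnpr and 0 transcripts of Syncrip.
Hnrnpr-Fwd: gcagtttgctgccatttgta
Hnrnpr-Rev: gccccagaataagggaactc

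Syncrip, the closest relative of Hnrnpr, had the smallest unadjusted p among the genes of at least 1 CPM with a higher level in Hnrnpr-/-. It had 64.1, 86.8, 87.9 and 77.1 CPM in the +/+ and 104, 130, 128 and 108 CPM in the Hnrnpr-/- libraries, so that all Hnrnpr-/- libraries lay above all +/+ libraries. The difference was 1.49-fold or 0.57 on the log2 scale (SE 0.13, 95% interval 0.28 to 0.86), with an unadjusted p of 0.00122 and an adjusted p of 0.999 over all genes. It was 0.63 without Hnrnpr-/- library 1, and Syncrip stayed under the unadjusted threshold in all 22 alternatives, with a smallest adjusted p of 0.133. Per kilobase of exon, Hnrnpr and Syncrip had similar levels in +/+ cells, 8.78 and 9.98 CPM per kb. In CPM, which are not divided by exon length, the gain in Syncrip was 38.5 and the loss in Hnrnpr was 193. The sum of both genes was 273 CPM in +/+ and 118 CPM in Hnrnpr-/-. The combined exons of Hnrnpr hold 22053 bases and those of Syncrip 7909, so that Hnrnpr weighs more in this sum. In Hnrnpr-/- the levels per kilobase were 14.9 for Syncrip and 0.0374 for Hnrnpr. On that scale the gain was again smaller than the loss, but made up a larger part of it. In the axonal libraries the Syncrip difference was -0.03, and the difference between compartments had an unadjusted p of 0.075, where 1.33% of 19964 genes lay under 0.05 and 0 after adjustment.

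Because reads that match several genes were divided between them, the sequences of both relatives were compared. The longest identical stretch between the canonical transcripts of Hnrnpr and Syncrip is 22 bases and lies in the coding part of exon 11 of both, at chr4:136067266-136067287 on the plus strand and chr9:88338243-88338264 on the minus strand. Between any annotated transcripts of both genes the longest is 46 bases, against a read length of 100 bases. The stretch between the canonical transcripts is shown because it is the longest that the 2 share.
Hnrnpr and Syncrip, shared stretch: attctggtaactatggttacaa

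Within the hnRNP family, 34 of 36 genes were tested, of which 1 was higher and 4 were lower in Hnrnpr-/- at an unadjusted p under 0.05, the latter including Hnrnpr, Rbmx and Hnrnpl. Over all genes tested, the shares were 1.68% and 0.941%. Without Hnrnpr-/- library 1 there were 3 higher and 2 lower, against 5.85% and 6.70% of all genes. The median log2 fold change of the family was 0.02, against 0.01 over all genes, and 32 of the 34 genes had a 95% interval inside a 2-fold change. Rbmx, an X-linked splicing regulator, had 71.0, 102, 100 and 76.6 CPM in +/+ and 54.9, 77.0, 74.0 and 54.8 CPM in Hnrnpr-/-, and its groups overlapped. Hnrnpl, a splicing regulator that binds CA repeats, differed by -0.30 (SE 0.13, unadjusted p = 0.0396), also with overlap. Without library 1 neither was under the threshold, with Rbmx at -0.35 (unadjusted p = 0.0596) and Hnrnpl at -0.25 (unadjusted p = 0.0731), and Rbmx was not without library 4 either (unadjusted p = 0.0717).

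Further members of the family were not under the unadjusted threshold. Hnrnpk, one of the most abundant, had 779, 897, 883 and 989 CPM in +/+ and 828, 894, 875 and 887 CPM in Hnrnpr-/-. Hnrnpa2b1, which carries mRNAs into neurites, differed by 0.11 on the log2 scale with an SE of 0.17, and Hnrnpu, a scaffold of nuclear RNA, by 0.15 with an SE of 0.11. Tardbp, the gene of TDP-43, a protein of amyotrophic lateral sclerosis, differed by 0.02 with an SE of 0.10. Ptbp1, which is replaced by Ptbp2 when neurons mature, had the widest interval among the more abundant members, with 24.2 to 66.9 CPM in +/+ and 33.0 to 73.7 CPM in Hnrnpr-/-.

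**Figure D1:**
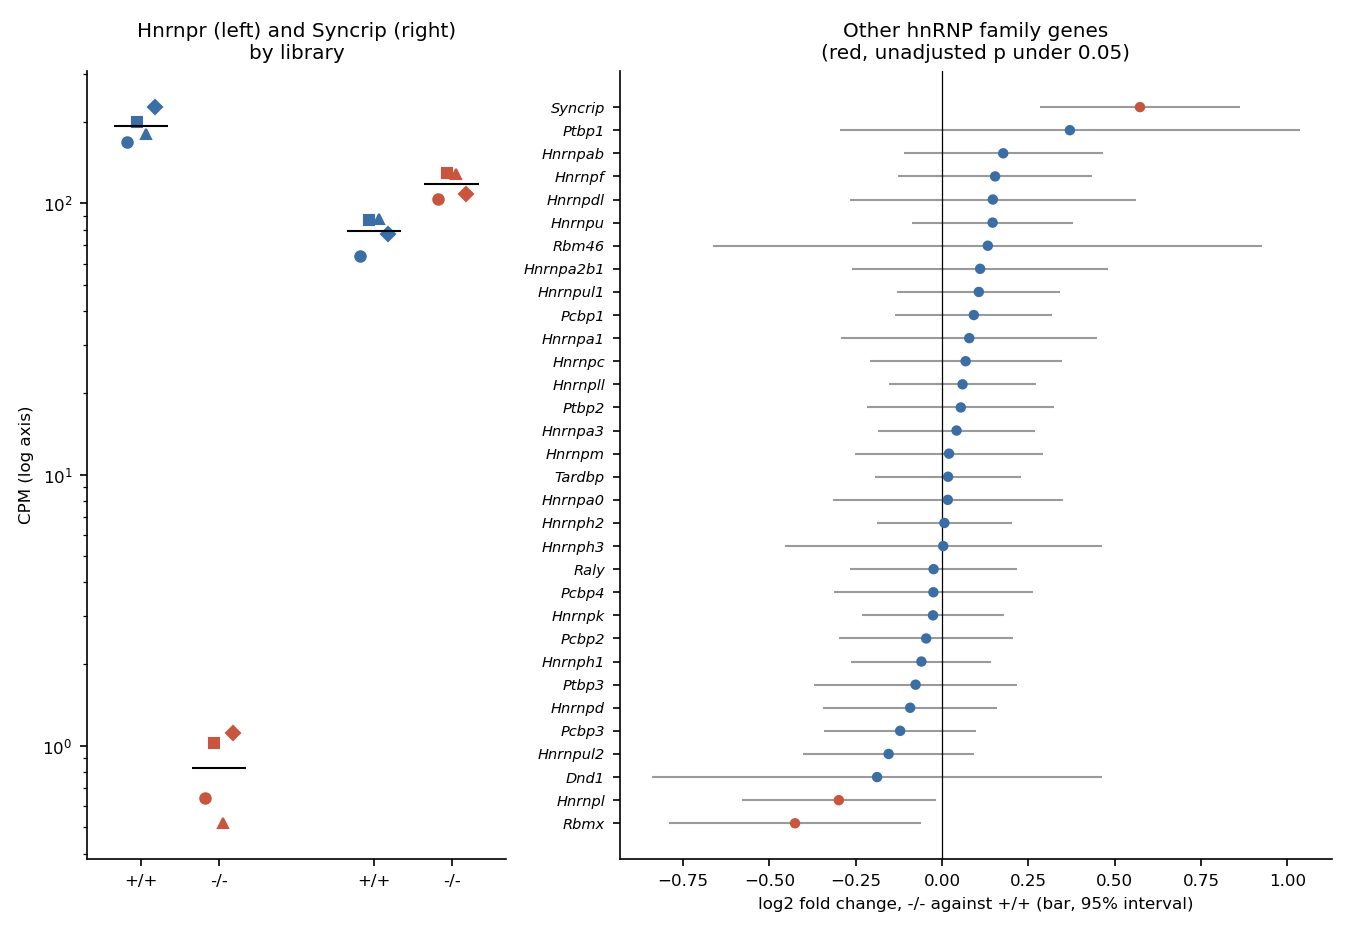
Left, CPM of Hnrnpr and Syncrip in each library on a log axis (circle, square, triangle and diamond, libraries 1 to 4; line, mean). Right, log2 fold change of 32 hnRNP family genes other than Hnrnpr, Syncrip among them, with 95% intervals. Hnrnpr fell from 194 to 0.824 CPM, and of the members drawn on the right Syncrip had the highest fold change (0.57).

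Across all genes the genotypes were close. The median log2 fold change was 0.01, with quartiles of -0.10 and 0.14, and 82.6% of the genes had a 95% interval inside a 2-fold change in either direction. Among 10463 genes of at least 10 CPM, this share was 97.2%, and 82.0% had an interval inside a 1.5-fold change. Among 2113 genes under 1 CPM, 30.8% had an interval inside a 2-fold change, so that for most weakly expressed genes a 2-fold change was not excluded by the interval. At an unadjusted p under 0.05, 302 genes were higher and 169 were lower in Hnrnpr-/-, or 1.68% and 0.941% of those tested. Together these are fewer genes than a threshold of 0.05 would pass if no gene differed. In 154 genes (0.857% of those tested) all Hnrnpr-/- libraries lay above all +/+ libraries, and in 125 genes (0.696%) all lay below. Each of these shares is smaller than a random order of the libraries would give. A lack of overlap in single genes is therefore a description, and by itself no evidence of a difference.

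**Figure D2:**
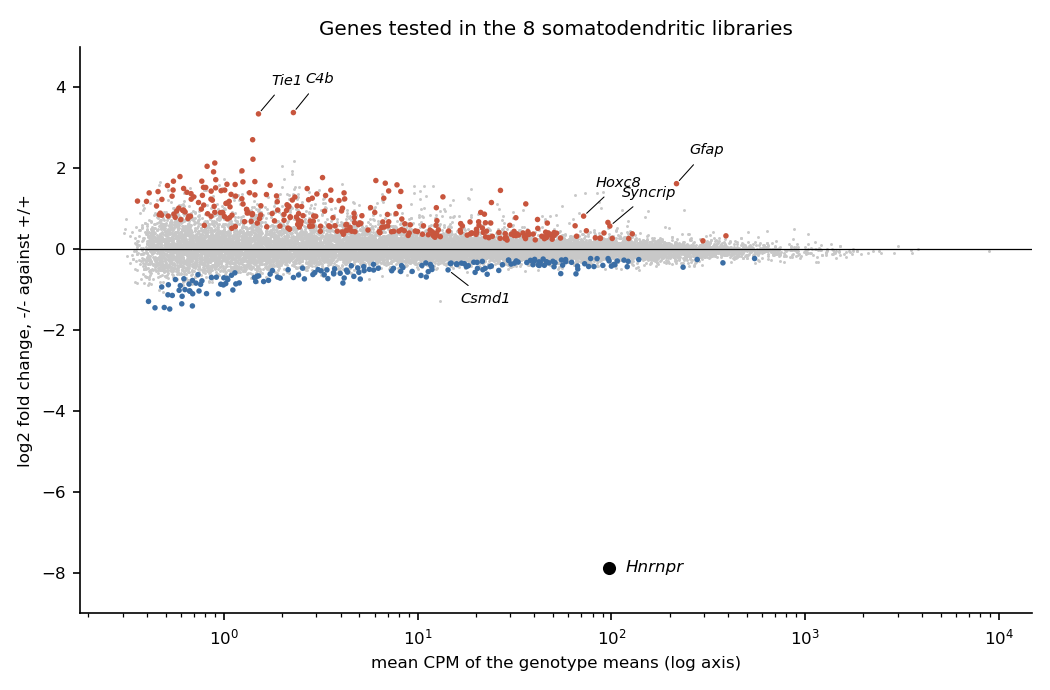
Log2 fold change of each tested gene (Hnrnpr-/- against +/+) by its mean CPM on a log axis. Red and blue points, unadjusted p under 0.05 (302 higher and 169 lower genes, the latter including Hnrnpr); grey, the others. Hnrnpr lies at -7.87, apart from every other gene.

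Other than Hnrnpr, none of the genes with the smallest unadjusted p passed the adjustment. Hoxc8, a Hox gene of the segments at thoracic and brachial level of the spinal cord, had 39.0, 43.2, 57.6 and 68.3 CPM in +/+ and 84.7, 130, 71.1 and 81.0 CPM in Hnrnpr-/-. The Hnrnpr-/- libraries all lay above the +/+ libraries (log2 fold change 0.82, SE 0.22, unadjusted p = 0.00368), and without library 1 the difference was 0.86. It was the 1 of 30 tested Hox genes under the unadjusted threshold, where 1.68% of all genes were higher, and the Hox genes had a median of -0.01. Asph, an aspartyl hydroxylase whose gene also encodes the calcium-sensing protein junctate, had 102, 112, 125 and 107 CPM in +/+ and 140, 148, 132 and 160 CPM in Hnrnpr-/-. Selenbp1, a selenium-binding methanethiol oxidase, had 6.28, 4.41, 6.83 and 3.36 CPM in +/+ and 10.7, 10.5, 7.64 and 14.7 CPM in Hnrnpr-/-. In both genes the groups did not overlap, with differences of 0.38 and 1.06 on the log2 scale. Adssl1, an enzyme of adenylate synthesis, Rasl12, a small GTPase of the Ras family, and Fbxo36, an F-box protein, were also without overlap, at 0.89, 1.07 and 0.99.

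Among the genes with a lower level, Csmd1, a complement regulator on neurons, had 17.8, 18.7, 16.4 and 14.6 CPM in +/+ and 12.4, 11.9, 10.7 and 12.4 CPM in Hnrnpr-/-. Its difference was -0.51 on the log2 scale (SE 0.13, unadjusted p = 0.00275), without overlap of the groups. Camk2n2, an inhibitor of the calcium kinase CaMKII, had 63.7, 57.6, 51.2 and 60.0 CPM in +/+ and 50.6, 42.0, 43.8 and 35.9 CPM in Hnrnpr-/-, also without overlap. Plekha5, a phosphoinositide-binding protein, had 26.0, 26.6, 30.4 and 27.7 CPM in +/+, where Hnrnpr-/- library 1 was at 25.5 CPM and libraries 2 to 4 were at 14.3, 14.6 and 17.7 CPM. Its difference was -0.62, and it was -0.83 without library 1 (unadjusted p = 7.05e-05, adjusted p = 0.115). Cyb561d1, a cytochrome b561 protein, and the noncoding RNAs Gm35685 and Junos were lower as well, at -0.51, -0.80 and -0.77. Junos is transcribed opposite to Jun, and as the library kit does not mark the strand of the RNA, reads of an antisense gene and its partner cannot be told apart.

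**Figure D3:**
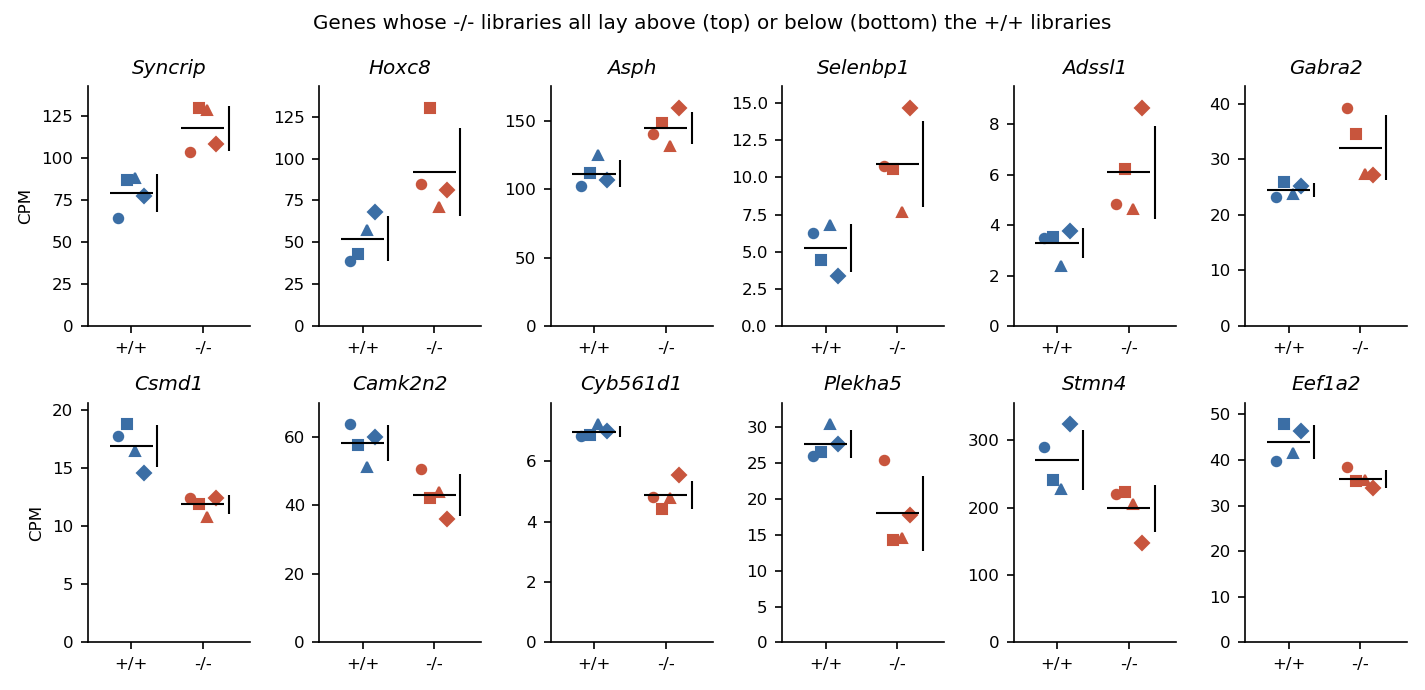
CPM of 12 genes in each library (blue, +/+; red, Hnrnpr-/-; horizontal line, mean; vertical line, SD; circle, square, triangle and diamond, libraries 1 to 4). In each panel the 4 Hnrnpr-/- libraries lie above (upper row) or below (lower row) the 4 +/+ libraries, and none of these genes passed the adjusted threshold.

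Of the genes other than Hnrnpr that were named by rule, 9 lay under the unadjusted threshold in each of the 22 alternatives, namely Syncrip, Selenbp1, Csmd1, Hoxc8, Fbxo36, Rasl12, Plekha5, Tie1 and C4b. The latter 2 were weakly expressed and depended on few libraries. Tie1, an endothelial receptor tyrosine kinase, had 0.514, 0, 0.314 and 0.177 CPM in +/+ and 0.922, 0.451, 2.35 and 7.34 CPM in Hnrnpr-/-. C4b, a complement factor made by glia and fibroblasts, had 0.0873 to 0.685 CPM in +/+ and 0.521 to 12.7 CPM in Hnrnpr-/-, with the next highest library at 1.91 CPM. In both, Hnrnpr-/- library 4 was the highest of the 8.

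The markers of other cell types were higher in some Hnrnpr-/- libraries than in others. The summed level of 10 microglia markers, the resident macrophages of the nervous system, was 79.9, 51.0, 71.8 and 38.7 CPM in +/+ and 33.1, 78.5, 93.4 and 232 CPM in Hnrnpr-/-. All 10 had a positive fold change, among them Cx3cr1, Csf1r and the complement genes C1qa to C1qc, with a median of 0.97 on the log2 scale that became 0.14 without Hnrnpr-/- library 4, and 0 were under the unadjusted threshold. Fibroblast, meningeal and mural markers summed to 119 to 787 CPM in +/+ and to 188, 278, 1426 and 1422 CPM in Hnrnpr-/-, so that libraries 3 and 4 were above and libraries 1 and 2 within the +/+ range. Of these 13 markers 0 were under the unadjusted threshold, and the median was 0.96, or 0.41 without library 4. Without library 1, 5 of 14 were higher and 0 lower, against 5.85% and 6.70% of all genes, and the median was 1.07. Endothelial and blood markers summed to 5.76 to 15.0 CPM in +/+ and to 7.30 to 27.9 CPM in Hnrnpr-/-. Of the 6 tested, 2 were higher at the unadjusted threshold, where the share over all genes was 1.68%. These were Cldn5, a tight junction protein, at 2.71 (unadjusted p = 0.0119), and Pecam1, an adhesion molecule of endothelium, at 1.29 (unadjusted p = 0.0231), of which Cldn5 stayed under the threshold without library 4. The globin genes, which mark red blood cells, were too low to be tested. Hba-a1 had 0 to 6 counts per library in +/+ and 1 to 15 in Hnrnpr-/-, Hba-a2 had 0 to 3 and 2 to 13, Hbb-y had 1 to 3 and 0 to 13, and Hbb-bs and Hbb-bt had at most 2 in either genotype.

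Glial markers varied in the same way. Gfap, the intermediate filament of astrocytes, had 174, 68.3, 80.0 and 102 CPM in +/+ and 64.6, 149, 311 and 785 CPM in Hnrnpr-/-, with library 1 below and libraries 3 and 4 above every +/+ library (log2 fold change 1.62, SE 0.62, unadjusted p = 0.0251). Aqp4, the water channel of astrocytes, had 102, 84.1, 66.7 and 44.5 CPM in +/+ and 68.8, 103, 130 and 169 CPM in Hnrnpr-/-. Without library 4 the difference was 0.72 for Gfap (unadjusted p = 0.157) and 0.44 for Aqp4 (unadjusted p = 0.143). Over 14 astrocyte and radial glia markers, 2 were higher at the unadjusted threshold, against 1.68% of all genes, with 0 without library 4 (0.813%) and 4 without library 1 (5.85%). Of the others, Glul, which makes glutamine, differed by -0.22 and Fabp7, of radial glia, by 0.01. For this list the sums were 2382 to 3876 CPM in +/+ and 3040 to 4399 CPM in Hnrnpr-/-, and the median was 0.15. The 13 oligodendroglia and Schwann cell markers tested summed to 1184, 552, 664 and 271 CPM in +/+ and to 384, 1451, 837 and 1620 CPM in Hnrnpr-/-, with 0 under the threshold. Without library 4 it was 0 as well, and without library 1 there were 4 higher and 0 lower, against 5.85% and 6.70% of all genes. In the 5 libraries with under 100 Ddx3y counts 9 were higher and 0 lower, against 4.15% and 6.23% of all genes. Mbp, a myelin protein, alone spanned 38.7 to 240 CPM in +/+ and 44.5 to 380 CPM in Hnrnpr-/-.

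Matrix genes had their highest sums in Hnrnpr-/- libraries 3 and 4 as well. Of 86 collagen and matrix remodeling genes 3 were higher and 0 lower at the unadjusted threshold, with a median of 0.30. Without library 4, where 0.813% of all genes were higher and 0.709% were lower, there were 1 higher and 2 lower and the median was 0.11, and without library 1 where the shares were 5.85% and 6.70%, there were 18 higher and 3 lower of 87. Their sums were 2210 to 3255 CPM in +/+ and 2375, 2197, 4396 and 4752 CPM in Hnrnpr-/-. Col23a1, a transmembrane collagen, had 34.6, 20.7, 20.8 and 14.8 CPM in +/+ and 20.0, 33.3, 52.4 and 92.6 CPM in Hnrnpr-/-, with a difference of 1.12 that became 0.63 without library 4 (unadjusted p = 0.0905). Of 35 integrins and laminins 2 were higher and 0 lower, with a median of 0.26. Without library 4 there were 1 higher and 0 lower, with a median of 0.10. Without library 1 there were 5 higher and 1 lower, with a median of 0.32, against the same 5.85% and 6.70%. Of 40 genes of BMP, activin and TGF-beta signaling 4 were higher and 0 lower, against 1.68% and 0.941% of all genes. Without library 4 there were 2 higher and the median moved from 0.13 to 0.04, and without library 1 there were 9 higher and 2 lower, against the 5.85% and 6.70% given above. Bmp7, a ligand of the BMP branch, differed by 0.40 (SE 0.17) and Smad9, a transducer of the same branch, by 0.56 (SE 0.24). Without library 1 neither was under the threshold, at 0.32 and 0.51 (unadjusted p = 0.0835 and 0.0777), and Smad9 was not without library 4 either (unadjusted p = 0.0849). The part of other cell types in these differences was not tested.

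**Figure D4:**
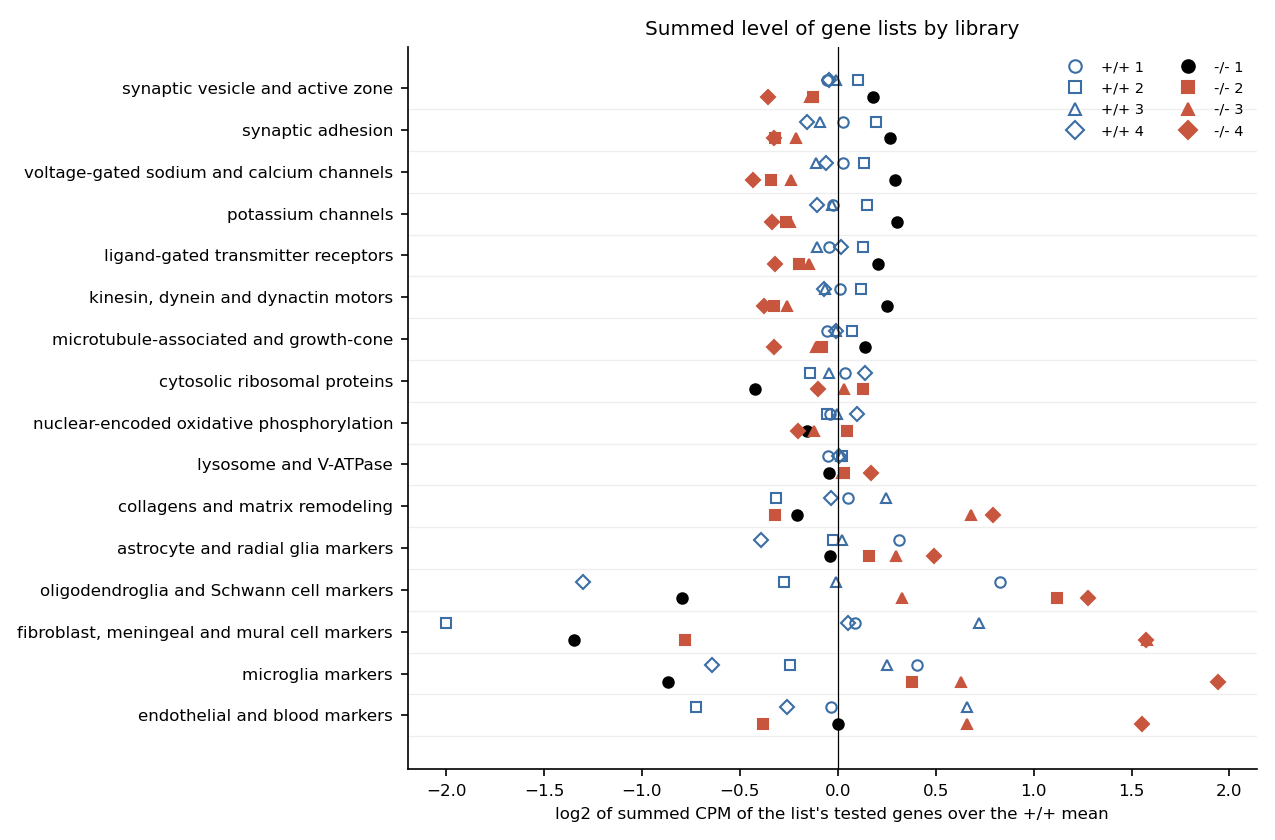
Summed CPM of the tested genes of 16 gene lists in each library, as the log2 of the ratio to the +/+ mean (open blue, +/+; black, Hnrnpr-/- library 1; red, Hnrnpr-/- libraries 2 to 4; circle, square, triangle and diamond, libraries 1 to 4). In the upper 7 lists library 1 lies to the right of, and libraries 2 to 4 lie to the left of, every +/+ library. In the microglia list Hnrnpr-/- library 4 (232 CPM) lies farthest to the right.

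Some neuronal gene groups set Hnrnpr-/- library 1 apart from Hnrnpr-/- libraries 2, 3 and 4. In 7 of the 58 lists, the summed level of Hnrnpr-/- library 1 lay above every +/+ library while libraries 2, 3 and 4 lay below every +/+ library. These were the lists of synaptic vesicle and active zone genes, synaptic adhesion molecules, voltage-gated sodium and calcium channels, potassium channels, ligand-gated receptors, kinesin and dynein motors, and microtubule-associated and growth-cone proteins. The synaptic vesicle genes, for example, summed to 13220, 14779, 13684 and 13310 CPM in +/+ and to 15594, 12594, 12439 and 10736 CPM in Hnrnpr-/-. Over all genes, 784 or 4.37% had this order of libraries and 283 or 1.58% had the reverse one. Among the 47 synaptic vesicle genes it was 15, among the 44 microtubule-associated and growth-cone genes 15, and among the 54 motor genes 11. Histone genes were the 1 list whose sum had the reverse order, at 836 to 1016 CPM in +/+ and 752, 1101, 1075 and 1098 CPM in Hnrnpr-/-.

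Leaving out Hnrnpr-/- library 1 increased the genes at an unadjusted p under 0.05 from 471 to 2291, of which 1068 were higher (5.85% of 18263 tested) and 1223 were lower (6.70%). Hnrnpr was still the only gene after adjustment (0.00548%). Leaving out any 1 of the other 7 libraries gave 148 to 470 higher and 109 to 246 lower genes. The counts moved by more than 1.5-fold without +/+ library 1 (109 lower), +/+ library 2 (179 higher), +/+ library 3 (470 higher), +/+ library 4 (199 higher) and Hnrnpr-/- library 4 (148 higher). The lower genes without library 1 included 23 of 47 synaptic vesicle genes, 18 of 36 synaptic adhesion genes, 12 of 33 sodium and calcium channel genes, 15 of 82 potassium channel genes, 13 of 54 motor genes and 16 of 44 microtubule-associated and growth-cone genes. With all 8 libraries these numbers were 1, 0, 0, 1, 2 and 1. The medians of the first 3 lists moved from -0.15, -0.14 and -0.13 to -0.28, -0.30 and -0.25. All lists counted here were named above because Hnrnpr-/- libraries 2 to 4 summed below every +/+ library. Their counts and medians in fits without library 1 therefore restate that order and are no separate result.

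**Figure D5:**
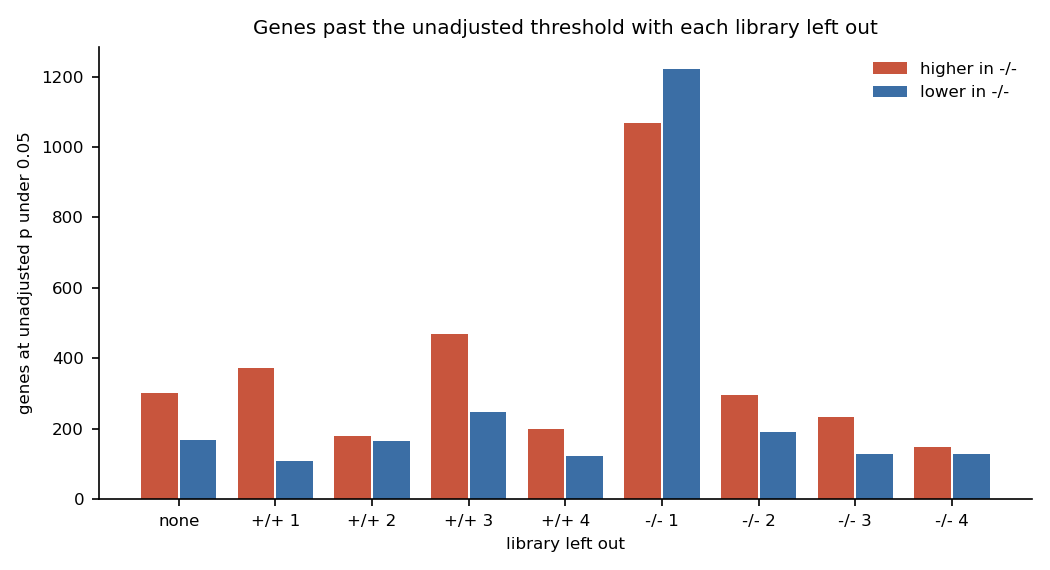
Number of genes at an unadjusted p under 0.05 that were higher (red) or lower (blue) in Hnrnpr-/-, with no library left out or with the named library left out. Without Hnrnpr-/- library 1 the counts were 1068 and 1223, against 302 and 169 with all libraries.

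Single genes showed the order of the libraries at high read numbers. Scn2a, a voltage-gated sodium channel, had 273, 297, 231 and 226 CPM in +/+ and 328, 162, 187 and 133 CPM in Hnrnpr-/-. Its difference was -0.34 with all libraries (unadjusted p = 0.185) and -0.67 without library 1 (unadjusted p = 0.000584). Map2, which stabilizes microtubules in dendrites, had 1095, 1136, 923 and 924 CPM in +/+ and 1351, 706, 799 and 627 CPM in Hnrnpr-/-. Cnot1, the scaffold of the deadenylase complex, had 197, 206, 158 and 159 CPM in +/+ and 261, 95.7, 144 and 110 CPM in Hnrnpr-/-. In these 3 genes library 1 was the highest and libraries 2 to 4 were the lowest of all 8. In the 5 libraries with under 100 Ddx3y counts, which are +/+ libraries 2 and 3 and Hnrnpr-/- libraries 2 to 4, 770 genes (4.15% of 18543) were higher and 1155 (6.23%) were lower at the unadjusted threshold, and 19 synaptic vesicle genes were among the latter. With the Ddx3y level as a covariate over all 8 libraries, 144 were higher and 88 were lower.

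Lysosomal genes and microglia markers were on the higher side of this comparison. Without library 1, 19 of 56 lysosome and V-ATPase genes were higher and 1 was lower, against 5.85% and 6.70% of all genes. With all libraries there were 3 higher and 0 lower, where the share of higher genes was 1.68%, and without library 4 there were 0 of either. Tpp1, a lysosomal peptidase, had 69.5, 54.1, 69.2 and 57.7 CPM in +/+ and 58.4, 76.3, 91.9 and 117 CPM in Hnrnpr-/-, with a difference of 0.46 that became 0.27 without library 4 (unadjusted p = 0.143). Of the microglia markers, 10 of 11 tested were higher without library 1. Of the motoneuron markers 0 of 5 lay under the threshold in either direction without library 1. In the 5 libraries with under 100 Ddx3y counts 2 of 5 were lower, against 6.23% of all genes, namely Slc18a3 at -0.79 (unadjusted p = 0.00987) and Slc5a7 at -0.88 (unadjusted p = 0.0145).

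The transcripts of proteins that the study follows were compared as well. Macf1, which links microtubules and actin, had 192, 188, 187 and 161 CPM in +/+ and 212, 127, 144 and 135 CPM in Hnrnpr-/-, with a difference of -0.24 (SE 0.16, unadjusted p = 0.167). Without library 1 the difference was -0.43 (unadjusted p = 0.00124). Ogt, the enzyme that adds O-GlcNAc to proteins, had 259, 300, 322 and 252 CPM in +/+ and 331, 251, 331 and 165 CPM in Hnrnpr-/-, and Oga, which removes it, had 277 to 534 CPM in +/+ and 327 to 553 CPM in Hnrnpr-/-. In both enzymes the groups overlapped over most of their range. Eif4g1, the scaffold of translation initiation, differed by -0.09 (SE 0.12), and it was -0.20 without library 1 (unadjusted p = 0.0418). The cytoskeletal genes Tuba1a, Tubb2a, Tubb3, Tubb4a, Actb and Mapt had differences of -0.05, -0.10, -0.14, -0.01, -0.09 and -0.08, with SEs of 0.09 to 0.15.

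Among the stathmins, which destabilize microtubules, Stmn4 had 289, 241, 227 and 323 CPM in +/+ and 219, 223, 205 and 148 CPM in Hnrnpr-/-, without overlap of the groups (log2 fold change -0.44, SE 0.16, unadjusted p = 0.0173). Stmn2, a stathmin of growth cones and a target of TDP-43, had 1198 to 1506 CPM in +/+ and 979 to 1376 CPM in Hnrnpr-/-, with overlap. Of 44 microtubule-associated and growth-cone genes Stmn4 was the 1 under the unadjusted threshold. Actin genes gave 2 of 40 lower, namely Cfl1, the actin-severing cofilin, and Diaph1, a formin that elongates actin filaments, at -0.34 and -0.50, against 0.941% lower of all genes. Cfl1 differed by -0.29 without library 4 (unadjusted p = 0.0572), and without library 1 there were 2 higher and 3 lower, where 5.85% and 6.70% of all genes were. Of 16 tubulin genes 0 were under the threshold, and 14 had a 95% interval inside a 1.5-fold change.

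Genes of translation and RNA processing were at similar levels in both genotypes. Of 69 spliceosome core and SR protein genes 0 were under the unadjusted threshold, with a median of 0.00, and of 68 translation initiation and elongation factors 1 was higher and 2 were lower, against 1.68% and 0.941% of all genes. Without library 1 there were 3 higher and 2 lower of these factors, against 5.85% and 6.70%. Eef1a2, the neuronal elongation factor, had 39.9, 47.8, 41.6 and 46.4 CPM in +/+ and 38.5, 35.5, 35.6 and 33.7 CPM in Hnrnpr-/-, without overlap. Of 13 genes of the SMN complex, 11 genes of 7SK RNA and P-TEFb and 27 genes of mRNA transport, 0 were under the threshold. Of 25 neuronal splicing regulators 1 was lower, namely Srrm3, and 0 were higher. Without library 1 these groups in turn had 1, 1, 3 and 3 lower and 0, 0, 0 and 1 higher genes. The spliceosome genes then had 3 lower and 1 higher, where the same 6.70% and 5.85% of all genes were.

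The direction of the ribosomal protein genes depended on the libraries used. Of 84 cytosolic ribosomal protein genes 74 had a negative fold change, 1 was lower at the unadjusted threshold, against 0.941% of all genes, and the median was -0.14. Without Hnrnpr-/- library 1, which had the lowest sum of all 8 libraries at 2639 CPM against 3207 to 3895 CPM in +/+, the median was -0.05, and in the 5 libraries with under 100 Ddx3y counts it was 0.13. Rps2, a protein of the small subunit, differed by -0.04 (SE 0.13) and Rpl13, of the large subunit, by 0.14 (SE 0.17). These short genes have many pseudogenes, between which reads with several alignments were divided, so that their levels are uncertain.

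Nuclear-encoded genes of oxidative phosphorylation had the largest count among the lower groups with all libraries. Of 91 genes 84 had a negative fold change, 10 were lower and 0 higher at the unadjusted threshold, against 0.941% lower and 1.68% higher of all genes, and the median was -0.22. Ndufb6, a subunit of complex I, had 48.1, 46.6, 43.0 and 49.7 CPM in +/+ and 34.4, 41.7, 39.8 and 35.2 CPM in Hnrnpr-/-, and it was the 1 gene of the list without overlap. Uqcr10, of complex III, and Cox5b, of complex IV, differed by -0.52 and -0.40, and in both Hnrnpr-/- library 1 was the lowest of all 8. Without it the differences were -0.44 and -0.32 (unadjusted p = 0.0558 and 0.0727), and without library 4 neither was under the threshold (unadjusted p = 0.0613 and 0.063). The count of 10 lower genes became 1 without Hnrnpr-/- library 1, where 6.70% of all genes were lower, and 1 without library 4, where 0.709% were lower. The median in the 5 libraries with under 100 Ddx3y counts was -0.01. Of 78 mitochondrial ribosome genes 1 was lower, and of 38 genes of glycolysis and the citric acid cycle 0 were under the threshold.

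Of 40 immediate early and axon injury genes 33 had a positive fold change with a median of 0.19, which became -0.10 without library 1, and Klf4, a repressor of axon growth, was the 1 under the threshold, where 1.68% of all genes were higher. Klf4 was highest in library 1, and its difference moved from 0.72 to 0.41 without it (unadjusted p = 0.153). The group's summed level was 1030 to 1532 CPM in +/+, 2120 CPM in Hnrnpr-/- library 1 and 1090 to 1165 CPM in libraries 2 to 4. Of 32 genes of the integrated stress response and 33 p53 and apoptosis genes 0 were under the threshold. Of 27 NRF2 and metallothionein antioxidant genes 18 had a negative fold change, the median was -0.06, and 2 were higher and 0 lower, against 1.68% and 0.941% of all genes. These were Nfe2l2, the master regulator of the antioxidant response, and its target Hmox1, which differed by 0.71 and 0.58 and were highest in Hnrnpr-/- library 4, at 24.2 and 32.3 CPM. Without library 4 they differed by 0.42 and 0.27 (unadjusted p = 0.116 and 0.199). Of 39 genes linked to amyotrophic lateral sclerosis 2 were lower and 0 higher, against 0.941% and 1.68% of all genes, and without library 1 it was 7 lower and 2 higher of 40, where 6.70% of all genes were lower and 5.85% were higher. Chchd10, a mitochondrial protein of this list, differed by -0.29, without overlap of the groups, and by -0.27 without library 1 and -0.28 without library 4, where its unadjusted p of 0.0264 became 0.0501 and 0.0534.

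Single receptors, guidance genes and signaling genes were under the unadjusted threshold with all libraries. Of 51 ligand-gated receptors 1 was higher and 1 was lower, and so it was for 79 axon guidance genes, against 1.68% and 0.941% of all genes. Without library 1 there were 2 higher and 12 lower receptors and 1 higher and 16 lower guidance genes, against 5.85% and 6.70% of all genes. Gabra2, a GABA receptor subunit of developing neurons, had 23.2, 26.0, 23.8 and 25.1 CPM in +/+ and 39.3, 34.5, 27.4 and 27.3 CPM in Hnrnpr-/-, without overlap (unadjusted p = 0.0172). Efna1, an ephrin ligand, had 0.568 to 1.97 CPM in +/+ and 2.01 to 3.67 CPM in Hnrnpr-/-. Lefty2, an inhibitor of Nodal, had 2.46, 0.611, 1.77 and 0.707 CPM in +/+ and 5.41, 3.94, 2.11 and 4.54 CPM in Hnrnpr-/-, with overlap.

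The remaining neuronal and growth-related groups gave at most 1 gene under the threshold with all libraries. Of 38 proliferation genes 36 had a positive fold change, with a median of 0.14 and 0 under the unadjusted threshold, and the helicase subunit Mcm7 had 59.8, 47.5, 52.1 and 49.1 CPM in +/+ and 49.1, 53.4, 64.6 and 65.8 CPM in Hnrnpr-/-. Of 32 transcription factors of spinal interneurons 0 were under the threshold, with a median of 0.00, and neither were any of 11 genes that mark other transmitters. Slc17a6, the vesicular glutamate transporter of excitatory neurons, had 404, 459, 424 and 463 CPM in +/+ and 473, 361, 385 and 320 CPM in Hnrnpr-/-, again with library 1 as the highest and libraries 2 to 4 as the lowest. Of 67 protocadherins, adhesion molecules whose clustered genes share sequence, 0 were under the threshold, as were 0 of 38 genes of sterol and fatty acid synthesis and 0 of 47 proteasome genes. Among 42 imprinted genes 1 was under the threshold, where 1.68% of all genes were higher, namely Asb4, with a fold change of 0.54 (SE 0.21) on the log2 scale, which was 0.46 without library 4 (unadjusted p = 0.0637). When Hnrnpr-/- library 1 was left out, 0 genes of these lists passed the adjusted threshold, and 6.70% of all genes were lower and 5.85% were higher at the unadjusted one. Under the unadjusted threshold there were then 7 of 67 protocadherins, 5 of 38 genes of sterol and fatty acid synthesis, 4 of 12 genes of other transmitters and 9 of 42 imprinted genes with a negative fold change. A positive fold change was under it for 3 proliferation genes, 2 interneuron transcription factors and 2 imprinted genes, which is near the share over all genes, and for the proteasome genes the count stayed at 0.

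The neighborhood of the deleted gene was described because the allele was backcrossed. Of 33 tested genes within 1 Mb of Hnrnpr, 0 were under the unadjusted threshold, with a median of 0.07. Within 10 Mb, 5 of 281 were higher and 1 was lower, against 1.68% and 0.941% of all genes. Zfp46 and Htr1d, protein-coding neighbors of Hnrnpr on chromosome 4, differed by -0.03 and -0.11 with SEs of 0.11 and 0.18, and LOC118568698, a noncoding RNA that overlaps Hnrnpr on the other strand, by -0.21 with an SE of 0.52. On chromosome 4 as a whole, 2.75% of 1163 genes were under the unadjusted threshold, and on the other autosomes the share was 1.98% to 3.29%.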

How the data were processed

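The authors sequenced cDNA of the somatodendritic and axonal compartments, made with the SMART-Seq v4 kit, trimmed reads with Cutadapt, aligned them with STAR 2.7.2b to GRCm39 and counted them on exons with featureCounts 1.6.4 in the reverse-strand setting. As the kit does not mark strand, reads in the other orientation were then not counted, so that the counts and depths given here are those of one orientation, and the share left out was not measured. Reads that matched several places or several genes were split into fractions, so that the deposited values are expected counts per gene, without normalization or a filter. Depth was 22024923 to 34593927 counts per library. A count of 0 allows up to 3 counts, and such floors cover counting error only, whereas the 95% intervals come from the fit and include the spread between libraries.

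Counts were rounded. The 8 somatodendritic libraries, grouped by their titles, were fitted in edgeR 4.0.16 (R 4.3.3) with filterByExpr by genotype, TMM factors and the quasi-likelihood test, two-sided and unpaired, with p values adjusted by Benjamini-Hochberg across every tested gene and a threshold of 0.05. The SE is the size of the log2 fold change divided by the square root of F. The difference between compartments was fitted over all 16 libraries. The fit was tested on simulated data. Alternatives used DESeq2 1.42.0, limma-voom (limma 3.58.1), other scalings and filters, a replicate block, and fewer libraries. The fits without Hnrnpr-/- libraries 1 and 4 together, with the Ddx3y level as a covariate, and with the 5 libraries under 100 Ddx3y counts were chosen after seeing the data. Members and the 58 gene lists were chosen with earlier results of these data known.

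Genes were named by rule: the hnRNP family, genes past the adjusted threshold, the 10 genes with the smallest p in each direction among those of at least 1 CPM, up to 4 members of each list by p (or the 2 most abundant where none passed), genes of proteins followed in the study, and neighbors of Hnrnpr. Markers, Cdh5, Ddx3y and Xist were named beside the results they touch. Transcripts, exons and UTRs are from the GENCODE annotation of GRCm39, and primers from the study's supplement. Results for some genes are not reported here.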

Additional observations from a re-analysis of the deposited data

Results flagged for a closer look

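For the tested genes and gene lists with values in the text, the 4 libraries of each genotype were searched for 1 library far from the others, by the gap to its nearest neighbor relative to the range of the group (Dixon's test). Of 184 groups examined, 6 had such a library, which is no more than the about 1 in 20 that chance gives. Of these, 3 were Hnrnpr-/- library 1. Ddx3y was at 30.0 CPM there, with the next Hnrnpr-/- library at 0.205 CPM. The summed level of immediate early and axon injury genes was 2120 CPM, with the next at 1165 CPM, and that of histone genes was 752 CPM, with the next at 1075 CPM. C4b was at 12.7 CPM in Hnrnpr-/- library 4, with the next at 1.91 CPM. Smad9 was at 1.39 CPM in Hnrnpr-/- library 2, with the next at 2.15 CPM. Cldn5 was at 1.11 CPM in +/+ library 1, with the next +/+ library at 0.157 CPM. The causes were not tested. The genotype effect differed between compartments in 0 genes after adjustment in edgeR and in 265 of 19964 at an unadjusted p under 0.05.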

How the results depend on the processing

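Hnrnpr kept its direction and its adjusted call in all 22 alternatives, with log2 fold changes of -8.05 to -5.33, the latter in DESeq2 with shrinkage. It was the only adjusted call in each of them except DESeq2 with default settings, which called 2 genes, with Cdh5 at 4.16 on the log2 scale (adjusted p = 0.0353). The number of genes at an unadjusted p under 0.05 moved more. It was 624 higher and 394 lower without a filter on low counts, 475 higher in DESeq2 with default settings, and 70 higher and 50 lower in one model over all 16 libraries. Without Hnrnpr-/- libraries 1 and 4 it was 506 and 992, with the Ddx3y level as a covariate 144 and 88, and in the 5 libraries with under 100 Ddx3y counts 770 and 1155. These 3 settings were chosen after seeing the data. Leaving out 1 library gave 148 to 1068 higher and 109 to 1223 lower genes, where the highest counts were without Hnrnpr-/- library 1. Genes with all Hnrnpr-/- libraries above all +/+ libraries made up 7.96% and those below 10.1% without libraries 1 and 4, 12.2% and 15.7% in the 5 libraries, and 1.36% to 4.61% and 1.25% to 6.69% with 1 library left out, where fewer libraries are compared. The share of genes with an interval inside a 2-fold change was 47.2% without a filter, where more weakly expressed genes are tested. Of the named genes, Hnrnpr passed the adjustment in each alternative and Cdh5 in DESeq2 with default settings only. Of the list medians, 1239 alternative values moved by less than the spread used to compare them and 35 by more. Of the counts of list genes under the unadjusted threshold, 1969 alternative values stayed within 1.5-fold of the main count and 579 did not. The causes were not tested.

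Same-numbered libraries were not closely matched, and this check cannot decide whether they shared a batch of cells. Deviations from the genotype means of same-numbered libraries correlated at -0.07, 0.17, 0.41 and -0.01 for numbers 1 to 4, and only those of number 3 correlated best with each other. With a replicate block, 548 genes lay under the unadjusted threshold (365 higher and 183 lower), and Hnrnpr was the 1 adjusted call. Errors were wider at low levels, with a median SE of 0.39 for genes under 1 CPM and 0.12 for genes over 100 CPM, and the part of depth in this was not tested.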
